A study of Mus musculus with 16 samples.

Results

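The comparison described here sets mouse livers that met both insults of the study, deletion of Tsc1 and alcohol feeding, against livers that met neither. Its members were chosen by the sample labels alone and are 8 of the 16 libraries of the series: 4 knockout ethanol libraries and 4 wild-type control libraries. All mice were of the C57BL/6J strain, every sample was whole liver, and the labels give a time of 10 days for each. The wild-type control group was fed a control diet, and the knockout ethanol group carried the hepatic TSC1 KO and received Gao-binge alcohol feeding, a regimen in which a liquid ethanol diet is followed by an ethanol gavage. The remaining groups, 4 knockout control libraries (the same knockout on the control diet) and 4 wild-type ethanol libraries (wild type under the same regimen), are used only to place the combined change beside each insult alone. The labels used here do not give the Cre driver, the exons removed, the sex or the age, nor whether each library was made from its own mouse. The p-values therefore rest on the spread among libraries, some of which may be technical.

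Tsc1 encodes hamartin, which with tuberin (Tsc2) holds the small GTPase Rheb inactive and thereby restrains the kinase complex mTORC1. In hepatocytes mTORC1 promotes ribosome and lipid synthesis and restrains autophagy, and lysosomal genes are driven by TFEB and TFE3, transcription factors that mTORC1 can hold in the cytoplasm. Ethanol is oxidised in the liver by alcohol dehydrogenases, CYP2E1 and aldehyde dehydrogenases, and alcohol feeding is known for fat accumulation, oxidative stress and stress hormone release.

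Library sizes ran from 14.7 to 21.7 M counts over genes with a symbol, and 14346 of 48051 such rows passed the filter on low counts. All 16 libraries had Ddx3y, a Y-linked gene, at 54.9 CPM (counts scaled to library size) or more and Xist at 0.552 CPM or less, the pattern of male tissue. The hepatocyte gene Alb took 7.73 to 8.39% of counts in wild-type control and 3.51 to 6.72% in knockout ethanol libraries, and mitochondrially encoded transcripts took 3.51 to 4.22% and 5.9 to 9.65%. The first 2 principal components held 33.2 and 29.4% of the variance. Among the knockout ethanol libraries, library 2 stood apart in genes of macrophages, bile ducts, matrix and fetal liver, and library 1 in interferon-stimulated genes. Results that rest on these libraries are given with and without them. In whole tissue, fewer cells of a type and less RNA per cell cannot be told apart.

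Tsc1 itself was read at 24.3, 27.6, 24.9 and 29.7 CPM in the wild-type control libraries and at 11.8, 14.9, 14.0 and 16.4 CPM in the knockout ethanol libraries. The groups did not overlap, and the knockout ethanol mean was 53.7% of the wild-type mean. The log2 change was -0.90 ± 0.13 (SE, adjusted p = 7.7e-05, edgeR quasi-likelihood test with Benjamini-Hochberg adjustment, used for every adjusted p below). An exact two-sided permutation test of the 8 libraries gave p = 0.0286, the smallest that 4 against 4 allows. The gene lies on chromosome 2 (28641228 to 28691167, plus strand, GRCm38). Tsc1 was also lower after ethanol in wild-type mice (log2 change -0.53, adjusted p = 0.0049), beside -0.52 after the knockout on the control diet (adjusted p = 0.015). Since the labels do not give the exons removed and Tsc1 was lower after ethanol alone as well, these gene-level counts are a weak check of the genotype labels.

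Both insults together changed a large part of the liver transcriptome. At an adjusted p under 0.05, 5630 of 14346 genes (39.2%) differed, of which 2961 (20.6%) were higher and 2669 (18.6%) lower in knockout ethanol livers. Rises were larger than falls: 1442 genes rose and 637 fell by more than 2-fold, and 169 rose and 35 fell by more than 8-fold. The 8 libraries did not overlap in 5118 genes (35.7%), and 3932 genes were called in each fit that left out 1 of these 8 libraries. Measured against the same wild-type control libraries, 1766 genes (12.3%) differed after Tsc1 loss alone and 4811 (33.5%) after ethanol alone. Within the knockout, ethanol changed 2024 genes (14.1%), and between ethanol-fed livers the knockout changed 5550 (38.7%). Since these contrasts share libraries, their sizes are given side by side and are not independent of each other.

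**Figure D1:**
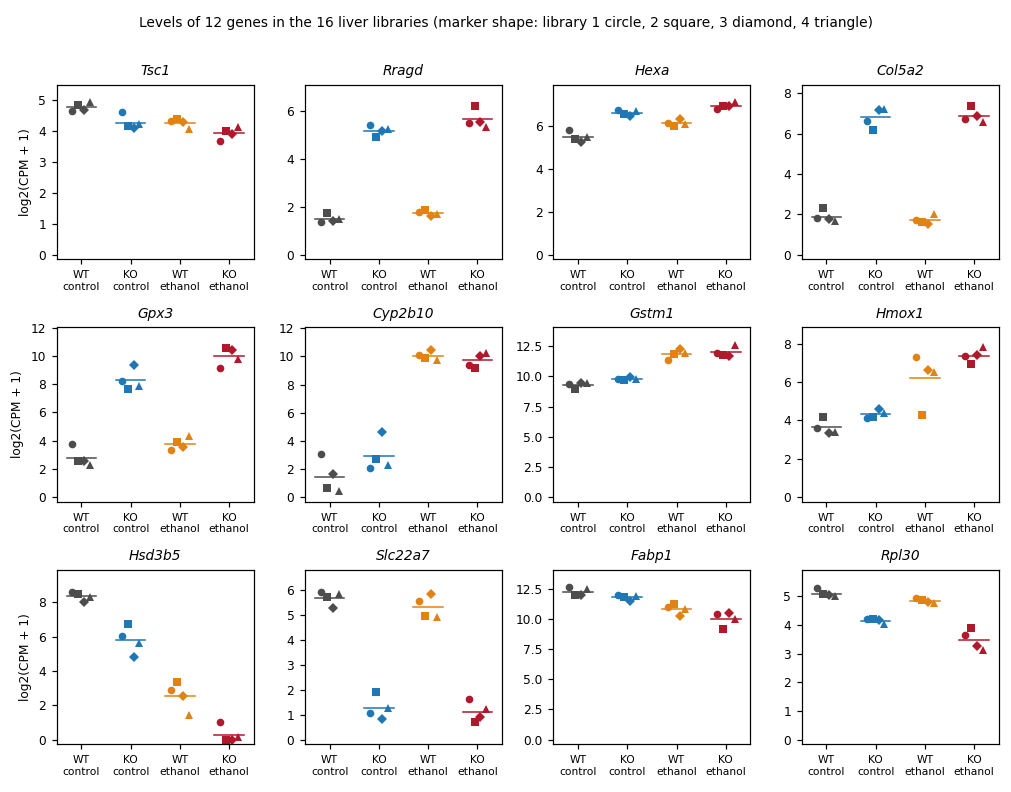
Levels of 12 genes as log2(CPM + 1) on the vertical axis in the 16 libraries, by group on the horizontal axis; each point is a library and each bar the group mean. Rragd, Hexa, Col5a2 and Gpx3 were high in both knockout groups, Cyp2b10, Gstm1 and Hmox1 in both ethanol groups, and Hsd3b5 and Fabp1 were lowest after both insults.

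The largest rise that held in every leave-one-out fit and in DESeq2 was that of Cyp2b10, a cytochrome P450 induced through the receptor CAR (chromosome 7, 25897620 to 25926624, plus strand). It was read at 7.51, 0.586, 2.09 and 0.348 CPM in wild-type control and at 663, 575, 1060 and 1220 CPM in knockout ethanol libraries, a log2 change of 8.38 ± 0.96 (adjusted p = 2.2e-05). Wild-type ethanol livers averaged 1070 CPM and knockout control livers 9.13 CPM, so the combined level lay with the ethanol groups. Gpx3, the extracellular glutathione peroxidase, took the reverse pattern: 12.8, 4.95, 5.04 and 3.77 CPM in wild-type control against 577, 1480, 1370 and 868 CPM in knockout ethanol, with 348 CPM in knockout control and 13.4 CPM in wild-type ethanol. Its log2 change was 7.33 ± 0.58 (adjusted p = 8.8e-07). Mmp7, a matrix metalloproteinase of injured epithelium, stood at 0.167 to 0.426 CPM in wild-type control and at 42.1, 92.6, 27.0 and 20.5 CPM after both insults (7.29 ± 0.72, adjusted p = 6.3e-06), beside 20.7 CPM after Tsc1 loss alone. Cfap44, a cilia and flagella protein, had 3 counts in all wild-type control libraries together and 357 in knockout ethanol, a ratio of 125 (95% interval 42.3 to 607, counting error only). Orm3, an orosomucoid of the acute-phase response, rose from at most 1.28 CPM to 58.4, 73.8, 84.3 and 73.8 CPM (6.66 ± 0.47, adjusted p = 3.3e-07).

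H19, an imprinted RNA of fetal liver, had the largest fitted rise among genes that met the naming rule. Its log2 change was 9.76 ± 1.82 (adjusted p = 0.00094), but 1 library carried most of it. It was read at 17.3, 675, 17.3 and 4.05 CPM in knockout ethanol libraries and at 0.106 to 0.389 CPM in wild-type control. Every knockout ethanol library was above every control, the log2 change was 5.97 without library 2, and DESeq2 did not call it. Lrtm2, a leucine-rich repeat membrane protein, followed the same library: 0.662, 19, 0.831 and 0.187 CPM, against 3 counts in all wild-type control libraries, a ratio of 127 (95% interval 43 to 617, counting error only). Its fitted log2 change of 6.70 fell to 3.51 without library 2, and DESeq2 did not call it.

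Several of the largest changes were in genes whose liver expression differs between the sexes in mice, where pulsatile growth hormone acting through STAT5 keeps the male pattern. Hsd3b5, a male-specific steroid dehydrogenase (chromosome 3, 98618634 to 98630252, minus strand), was read at 377, 354, 257 and 309 CPM in wild-type control and at 1.02, 0, 0 and 0.125 CPM in knockout ethanol libraries. Its log2 change of -10.12 ± 0.80 (adjusted p = 1e-06) was the largest fall that met the naming rule. Knockout control livers averaged 61.4 CPM and wild-type ethanol livers 5.56 CPM, and the combined group was below both. Slco1a1, a male-biased organic anion transporter, went from 689, 906, 669 and 774 CPM to 143, 4.93, 39.5 and 17.2 CPM (-3.89 ± 0.72, adjusted p = 0.00082), a call that DESeq2 did not make. Mup7, a major urinary protein, stood at 1110, 1290, 1310 and 1140 CPM in wild-type control and at 176, 0.851, 17.9 and 39.1 CPM after both insults (-4.37 ± 1.00, adjusted p = 0.0034). Library 2 was the lowest of the knockout ethanol libraries for Slco1a1 and Mup7, but no library reached the control range.

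Among the largest rises were some genes known to be female-biased in mouse liver, described here one by one and not as a list. Cyp2b9 rose from 0.058 to 1.11 CPM in wild-type control to 69.0, 85.7, 99.7 and 162 CPM (7.91 ± 1.02, adjusted p = 5.5e-05), beside 9.47 CPM in wild-type ethanol and 0.866 CPM in knockout control. Cyp2b13 had no count in the 4 wild-type control libraries and 147 counts in knockout ethanol, at least 51.3-fold higher against a floor of 3 counts over the group. Cux2, a transcription factor of female liver, rose from 0.426 to 1.29 CPM to 18.8, 28.9, 37.0 and 48.3 CPM (5.64 ± 1.27, adjusted p = 0.0033). Cyp2a4 stood at 4.93, 160, 6.47 and 13.5 CPM against at most 0.426 CPM (7.39 ± 1.33, adjusted p = 0.00067, and 4.91 without knockout ethanol library 2). In a list of 33 growth hormone, IGF1 and STAT5-regulated genes, 12 fell and 4 rose, with a median log2 change of -0.77. Of all genes tested, 18.6% fell and 20.6% rose. The median was -0.79 after ethanol alone and -0.02 after Tsc1 loss alone. The list score of a library is the median over members of the log2 level minus its wild-type control mean. It ran from -1.62 in knockout ethanol library 2 to -0.21 in library 1. The fallers included Mup1 (-3.13), Hsd3b2 (-2.78), Cyp7b1, the oxysterol hydroxylase (-2.77), and Nudt7 (-2.17). Igfbp1, which binds IGF1 and is induced in fasting and stress, rose (3.01 ± 0.64, adjusted p = 0.0021). Across all genes tested the median log2 change was 0.02.

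The other large falls included 3 transporter genes. Slc22a28 fell from 11.3, 13.2, 13 and 19.2 CPM to at most 0.297 CPM (-6.65 ± 0.49, adjusted p = 1.7e-07). Slc22a7, an organic anion transporter of hepatocytes, was read at 59.7, 51.2, 37.2 and 55.5 CPM in wild-type control and at 2.11, 0.624, 0.89 and 1.37 CPM after both insults (-5.35 ± 0.39, adjusted p = 3.2e-07). Its mean was 1.51 CPM after Tsc1 loss alone and 40.2 CPM after ethanol alone, so the low level went with the knockout. Slc17a8, a vesicular glutamate transporter, fell by 4.44 on the log2 scale, again with a low knockout control level (5.79 CPM against 24.1 CPM in wild-type ethanol). Of 13 organic ion transporters tested, 6 fell and 2 rose (median -0.20), beside 18.6 and 20.6% of all genes tested. Without knockout ethanol libraries 1 and 2, 5 fell and 3 rose (median -0.05). The rest of the largest falls were Serpina9 (-5.66), Ugt2b38 (-4.98), the tyrosinase-related enzyme Dct (-4.92), the carboxylesterase Ces4a (-4.69), the adipokine Serpina12 (vaspin, -4.36) and the fibrillar collagen Col27a1 (-4.01). No overlap between the 8 libraries was a condition for naming a gene as a largest rise or fall, so it is not a result here.

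Measured as a difference of level rather than of fold, the rises were led by mitochondrially encoded mRNAs. mt-Co1, a subunit of cytochrome oxidase, stood at 8780, 9500, 9410 and 8410 CPM in wild-type control and at 14900, 12600, 21600 and 25100 CPM in knockout ethanol libraries (log2 change 1.04 ± 0.19, adjusted p = 0.0005). mt-Cytb, mt-Nd1, mt-Nd4 and mt-Nd5 rose by 1.05, 0.96, 1.04 and 0.97 on the log2 scale. Gstm1 (2.73), the selenium carrier Selenop (0.81) and fetuin (Ahsg, 0.54) completed the 8 largest rises in level. Among the falls, Alb went from 86900, 77400, 78600 and 79200 CPM to 35300, 29300, 55800 and 72500 CPM. This fall of 0.74 ± 0.22 on the log2 scale (adjusted p = 0.013) was not called in a fit of the 8 libraries alone, nor without knockout ethanol libraries 1 and 2, where the change was -0.33. The fatty acid binding protein Fabp1 fell from 6250, 3990, 3970 and 5660 CPM to 1330, 579, 1430 and 1030 CPM (-2.18 ± 0.27, adjusted p = 1.8e-05). Cyp2e1 (-1.21), Apoa1 (-0.62), haptoglobin (Hp, -1.37) and carbonic anhydrase 3 (Car3, -1.73) fell too. Genes ranked by level were named only if the 8 libraries did not overlap. Ces3a (-2.46) lost its call with the 8 libraries alone, and the protease inhibitor Pzp (-0.59) lost it without knockout ethanol libraries 1 and 2.

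**Figure D2:**
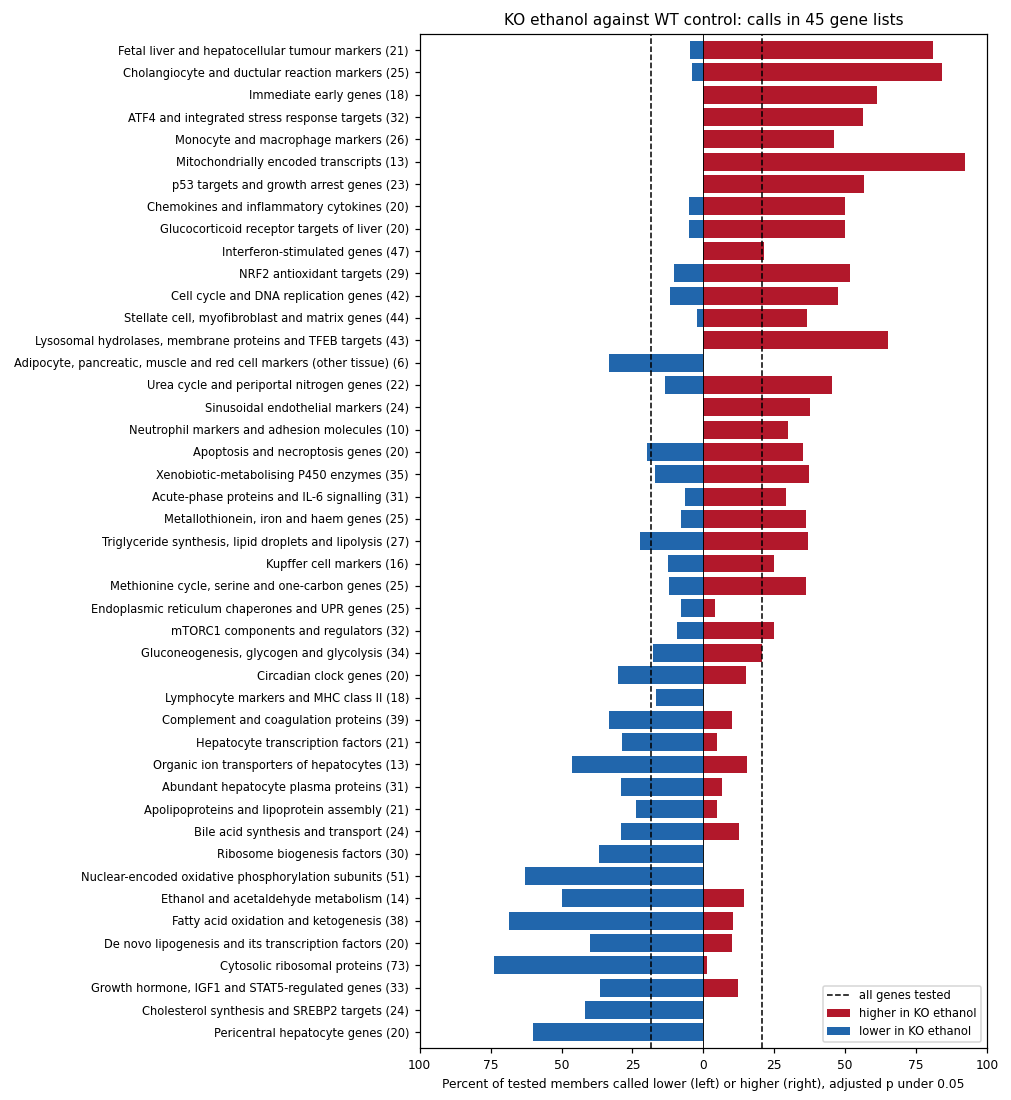
For 45 gene lists (members tested in brackets), the percent of members called lower (blue, left) and higher (red, right) in KO ethanol against WT control; dashed lines mark 20.6 and 18.6%, the shares of all genes tested called higher and lower. Lists are ordered by their median log2 change, from 2.2 for fetal liver markers to -0.91 for pericentral genes.

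Counts in this and the following lists stand beside the shares of all genes tested, 20.6% higher and 18.6% lower. Of 32 components and regulators of mTORC1, 8 rose and 3 fell, with a median log2 change of 0.10. Rragd, a Rag GTPase that brings mTORC1 to the lysosome, was read at 1.56, 2.34, 1.66 and 1.80 CPM in wild-type control against 44.0, 73.2, 45.7 and 39.8 CPM in knockout ethanol libraries, with no overlap (4.77 ± 0.21, adjusted p = 6.2e-10). Knockout control livers held 35.4 CPM and wild-type ethanol livers 2.33 CPM. Ddit4 (REDD1), an inhibitor of mTORC1 induced by stress, rose by 3.65 ± 0.31 (adjusted p = 1.1e-06). The translation repressor Eif4ebp1 rose by 1.26 ± 0.14 and the sestrin Sesn3 by 1.36 ± 0.16. The Ragulator subunit Lamtor4 fell by 0.63 on the log2 scale, and Mtor itself did not pass the test (-0.08 ± 0.10, adjusted p = 0.54).

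Most lysosomal genes tested rose, and none was called lower in the fit of all libraries. Of 43 hydrolases, membrane proteins and TFEB targets tested, 28 rose and none fell, with a median log2 change of 0.58. Without knockout ethanol libraries 1 and 2, 26 rose and none fell, and without library 1 alone 27 rose and 1 fell. After Tsc1 loss alone 22 rose and none fell with a median of 0.41. After ethanol alone 11 rose and 4 fell with a median of 0.16. Hexa, a lysosomal glycosidase subunit, went from 55.5, 41.2, 38.0 and 44.9 CPM to 113, 124, 124 and 140 CPM (1.48 ± 0.12, adjusted p = 3.8e-07), with no overlap between the groups. The V-ATPase subunits Atp6v0e and Atp6v1b2, which acidify the lysosome, rose by 1.22 ± 0.09 and 0.95 ± 0.08, and the protease Ctsz by 1.07 ± 0.10. For Atp6v0e each insult alone gave part of the rise, 0.46 for Tsc1 loss and 0.98 for ethanol. Not every lysosomal gene passed: the protease Ctsh stood at -0.22 ± 0.11 (adjusted p = 0.11).

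TFEB and its relatives bind a core E-box, CACGTG, and the windows from 250 bases before to 50 after the start of the genes were searched for it (the motif is its own reverse complement). It was present in 9 of the 21 rising lysosomal genes that have a promoter in the RefSeq set (42.9%), in 13 of 31 list members tested (41.9%) and in 11.6% of all tested genes with a promoter. Since the list holds known TFEB targets, a share above that of all genes can follow from the choice of members. The share in rising genes was near that in all members tested. The windows of Lamp1, the main lysosomal membrane glycoprotein, and Gla, the alpha-galactosidase, are shown because they hold 4 and 2 copies; both genes were chosen after their values were seen, and capitals mark CACGTG (RefSeq, GRCm38.p6; Lamp1 chr8:13158911-13159210, plus strand; Gla chrX:134600956-134601255, minus strand).
Lamp1: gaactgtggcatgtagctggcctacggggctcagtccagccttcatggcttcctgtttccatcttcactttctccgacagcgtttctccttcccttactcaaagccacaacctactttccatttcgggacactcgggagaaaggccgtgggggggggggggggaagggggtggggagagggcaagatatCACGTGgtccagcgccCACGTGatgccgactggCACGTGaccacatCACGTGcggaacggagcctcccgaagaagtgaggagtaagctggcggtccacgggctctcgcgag
Gla: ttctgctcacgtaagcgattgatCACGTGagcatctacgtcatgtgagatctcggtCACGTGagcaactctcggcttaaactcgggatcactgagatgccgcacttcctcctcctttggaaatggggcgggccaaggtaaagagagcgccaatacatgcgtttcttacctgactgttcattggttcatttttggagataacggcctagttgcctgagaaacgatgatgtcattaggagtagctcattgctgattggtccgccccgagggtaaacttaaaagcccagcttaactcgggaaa
Lamp1 rose from 545 ± 6.11 to 844 ± 72.9 CPM (SD, n = 4; log2 change 0.63) and Gla from 5.64 ± 0.476 to 12.6 ± 1.59 CPM (1.16). A match of letters is a description and not a binding site.

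Genes of translation fell. Of 73 cytosolic ribosomal proteins, 54 fell and 1 rose, with a median log2 change of -0.68, while the median was -0.53 after Tsc1 loss alone and -0.04 after ethanol alone. Rpl30 was read at 38.0, 32.5, 31.8 and 31.0 CPM in wild-type control and at 11.6, 13.8, 8.67 and 7.80 CPM in knockout ethanol libraries (-1.67 ± 0.14, adjusted p = 5.2e-07). Rps3a1 (-1.5), Rps19 (-1.31), Rpl37 (-1.14) and Rps25 (-1.02) fell too, and Rpl41 was the exception (0.56 ± 0.15, adjusted p = 0.0071). Ribosome biogenesis factors followed in the same direction, 11 of 30 fell and none rose, with a median of -0.30. They included the RNA polymerase I subunits Polr1c (-0.97) and Polr1b (-0.73), the pseudouridine synthase Dkc1 (-0.87), nucleophosmin (Npm1, -0.79) and Nop16 (-0.50). Ethanol alone gave this list a median of 0.25, with 11 of 30 higher and 3 lower, so the combined direction was that of Tsc1 loss alone (median -0.29). Reads of ribosomal protein genes can be shared with processed copies, so single values in this family are uncertain.

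Nuclear and mitochondrial genes of the respiratory chain moved apart. Of 51 nuclear-encoded subunits of oxidative phosphorylation, 32 fell and none rose (median -0.37), among them Ndufa9 of complex I (-0.77 ± 0.09), Uqcrfs1 (-0.83) and Uqcrh (-0.68) of complex III, Cox7a2 of complex IV (-0.79) and Atp5j of the ATP synthase (-0.54). Of 13 mitochondrially encoded transcripts, 12 rose and none fell (median 0.97). Atp5b, an abundant subunit of the ATP synthase, stood at -0.16 ± 0.11 (adjusted p = 0.27). The summed level of the mitochondrially encoded transcripts was 35500 to 40600 CPM in wild-type control and 49100 to 104000 CPM in knockout ethanol libraries. Mitochondrial reads also track RNA handling and cell integrity, and their part in this result was not tested.

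Genes of the integrated stress response rose. Among 32 genes driven by ATF4, which carries this response to nutrient and protein stress, 18 rose and none fell. Their median log2 change was 1.45, beside 1.53 after ethanol alone (23 higher) and 0.31 after Tsc1 loss alone (5 higher). The stress protein Nupr1 rose from 0.553 to 1.60 CPM to 18.1, 68.2, 15.4 and 40.4 CPM (5.08 ± 0.54, adjusted p = 9.8e-06). The amino acid transporter subunit Slc3a2 rose from 35.2, 38.1, 36.7 and 35.0 CPM to 112, 141, 109 and 162 CPM (1.85 ± 0.21), the lipoprotein receptor Vldlr by 2.50 ± 0.33 and Sesn2 by 1.84 ± 0.31. Chaperones and unfolded protein response genes of the endoplasmic reticulum did not share this: 1 of 25 rose and 2 fell, and the chaperone Hspa5 stood at 0.41 ± 0.45 (adjusted p = 0.49).

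The element bound by C/EBP and ATF factors, searched as TGATGNAA on both strands, was present in the same 300-base windows of 7 of 18 rising list members (38.9%), of 10 of 27 list members tested (37%) and of 2.87% of all tested genes with a promoter. The list was drawn up from known ATF4 targets, so a share above that of all genes can follow from the choice of members. Rising members and all members tested had near shares. The windows of Nupr1 and Asns, asparagine synthetase, are shown as examples chosen after their values were seen, with the element in capitals (in Nupr1 it reads on the opposite strand; RefSeq, GRCm38.p6; Nupr1 chr7:126625421-126625720, minus strand; Asns chr6:7693160-7693459, minus strand).
Nupr1: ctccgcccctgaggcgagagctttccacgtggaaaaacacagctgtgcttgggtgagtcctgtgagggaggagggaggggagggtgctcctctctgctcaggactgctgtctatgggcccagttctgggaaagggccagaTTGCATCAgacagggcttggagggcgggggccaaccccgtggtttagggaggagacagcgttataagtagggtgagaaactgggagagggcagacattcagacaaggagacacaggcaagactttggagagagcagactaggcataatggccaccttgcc
Asns: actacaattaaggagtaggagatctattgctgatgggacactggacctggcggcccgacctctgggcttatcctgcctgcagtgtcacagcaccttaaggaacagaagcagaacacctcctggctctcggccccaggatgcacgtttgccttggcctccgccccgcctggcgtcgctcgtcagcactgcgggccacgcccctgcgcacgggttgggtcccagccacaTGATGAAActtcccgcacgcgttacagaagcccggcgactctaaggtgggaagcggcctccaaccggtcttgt
Asns was read at 5 ± 2.43 CPM in wild-type control and at 35.7 ± 27.8 CPM in knockout ethanol libraries (SD, n = 4; log2 change 2.83, adjusted p = 0.0016).

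Among 23 growth arrest genes and targets of p53, 13 rose and none fell (median 0.92). When knockout ethanol libraries 1 and 2 were left out, 10 rose and none fell, with a median of 0.54, and the list score was 1.25 in library 2. Cdkn1a, the cell cycle inhibitor p21, was read at 1.06, 3.35, 1.66 and 1.86 CPM in wild-type control and at 13.5, 50.9, 52.4 and 35.9 CPM in knockout ethanol libraries (4.25 ± 0.51, adjusted p = 2.8e-05), but at 166 CPM in wild-type ethanol. Eda2r, a death receptor of the TNF receptor family, went the other way: 4.41 CPM after Tsc1 loss alone, 0.392 CPM after ethanol alone, and 1.32, 6.86, 5.40 and 2.25 CPM after both (3.51 ± 0.51). Ccng1 (0.92) and Zmat3 (1.58) rose as well. Among 20 apoptosis and necroptosis genes, 7 rose and 4 fell, and without knockout ethanol libraries 1 and 2, 2 rose and 4 fell. The necroptosis effector Mlkl (1.79 ± 0.19) and the pore former Bak1 (1.19 ± 0.15) rose, and Gsdmd, the pyroptosis effector, and Casp8 fell by 0.60 and 0.59 on the log2 scale.

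Immediate early genes and glucocorticoid receptor targets were higher, with 11 of 18 and 10 of 20 members rising and 0 and 1 falling. Their medians were 1.46 and 0.75, beside 1.78 and 2.38 after ethanol alone. Without knockout ethanol library 2, 6 glucocorticoid targets rose and 1 fell. Klf6 rose from 7.86 to 12 CPM to 44.2, 54.6, 62.9 and 86.3 CPM (2.70 ± 0.40, adjusted p = 0.00014), and Jund (1.55), Fosl2 (0.90), Klf2 (1.01) and Ier3 (1.82) rose. Tyrosine aminotransferase (Tat), a classic glucocorticoid target, stood at 1310, 2460, 1660 and 1970 CPM after both insults against 746 to 1130 CPM in wild-type control (1.06 ± 0.23, adjusted p = 0.0019), and at 5000 CPM after ethanol alone. Sult1e1, the oestrogen sulfotransferase, rose by 2.68 and the kinase Pim3 fell by 1.68 on the log2 scale. Among 20 clock genes 3 rose and 6 fell: the PAR-bZIP factors Dbp (-1.69) and Tef (-0.80) and the repressor Nr1d2 (-0.78) fell, while the activators Arntl (1.59) and Clock (0.76) rose.

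**Figure D3:**
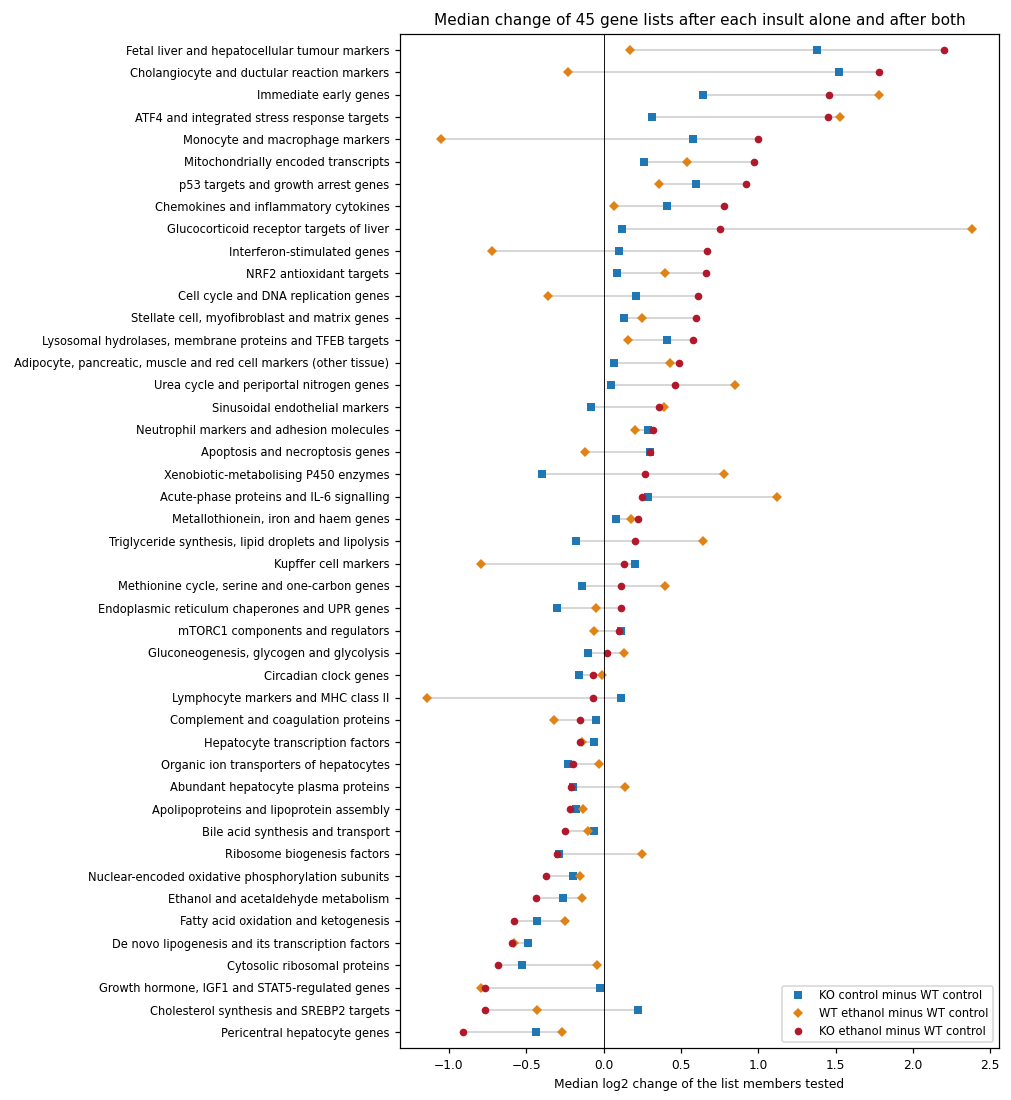
Median log2 change of the tested members of 45 gene lists after Tsc1 loss alone (squares), ethanol alone (diamonds) and both (circles), each against the same WT control libraries. The combined median lay near Tsc1 loss alone for ribosomal proteins and bile duct markers and near ethanol alone for ATF4 targets, and between both for glucocorticoid targets.

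Among antioxidant genes rises outnumbered falls, and P450 enzymes were divided. Of 29 NRF2 targets, 15 rose and 3 fell (median 0.66). The glutathione S-transferase Gstm1 rose from 654, 479, 683 and 701 CPM to 3810, 3480, 3230 and 6210 CPM (2.73 ± 0.23, adjusted p = 4.8e-07), Gsta2 by 3.84 ± 0.30, Gsta4 by 1.46 ± 0.15, the quinone reductase Nqo1 by 2.63 ± 0.25 and sulfiredoxin (Srxn1) by 2.48 ± 0.21. For all 5 the wild-type ethanol mean lay within the range of the 4 knockout ethanol libraries. Haem oxygenase (Hmox1) rose from 9.15 to 17.0 CPM to 164, 122, 167 and 227 CPM (3.84 ± 0.48, adjusted p = 4.3e-05). Malic enzyme (Me1), which supplies NADPH, fell by 1.72 on the log2 scale, and Taldo1 by 0.41. Of 35 P450 enzymes 13 rose and 6 fell (median 0.27, and 0 without knockout ethanol library 1): besides the Cyp2b genes, Cyp2c37 rose by 1.71, and Cyp2c67 (-2.39) and Cyp2u1 (-1.21) fell.

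Of 14 tested enzymes that handle ethanol, 7 fell and 2 rose. Cyp2e1 was read at 9810, 8030, 7940 and 7520 CPM in wild-type control and at 4380, 1430, 4400 and 4180 CPM in knockout ethanol libraries (-1.21 ± 0.27, adjusted p = 0.0023). Adh4 fell by 1.88 ± 0.24 and Adh5 by 0.80 ± 0.13, the mitochondrial aldehyde dehydrogenase Aldh1b1 rose by 1.77 ± 0.26 and the acyl-CoA synthetase Acss3 by 1.35 ± 0.29. Of the 14, 4 fell without knockout ethanol libraries 1 and 2. Catalase (Cat) did not pass the test (-0.20 ± 0.19, adjusted p = 0.41).

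Most tested genes of fatty acid oxidation fell, and the count for lipogenesis depended on knockout ethanol libraries 1 and 2. Of 38 genes of fatty acid oxidation and ketogenesis, 26 fell and 4 rose (median -0.58). Of the 38, 10 were lower than in both single-insult groups, beside 2.24% of all genes tested. Over all genes that count was 321 and ran from 150 to 432 when 1 library was left out. The mitochondrial thiolase Acaa2 fell from 1310, 1000, 1120 and 1140 CPM to 534, 370, 513 and 465 CPM (-1.28 ± 0.14, adjusted p = 4.3e-06). The peroxisomal thiolase Acaa1a (-1.30), the dehydrogenase Acadvl (-1.07), the electron carrier Etfa (-1.08) and their regulator Ppara (-1.23) fell, against Acot2 (1.83) and Cyp4a10 (1.48), which rose. Of 20 lipogenic genes, 8 fell and 2 rose (median -0.59). The lipogenic factor Srebf1 went from 307, 183, 324 and 428 CPM to 59.8, 49.3, 86.8 and 96.3 CPM (-2.09 ± 0.32, adjusted p = 0.00017), the receptor Nr1h3 fell by 0.68, and Acacb, the mitochondrial acetyl-CoA carboxylase, rose by 1.27. With knockout ethanol libraries 1 and 2 left out, 3 of these 20 fell, a share below the 18.6% of all genes tested, and 22 of the 38 oxidation genes fell. Without library 1 alone, 5 of the 20 fell. Of 24 genes of cholesterol synthesis, 10 fell and none rose (median -0.77), with Stard4 (-1.53 ± 0.17), Insig1 (-1.78), Fdft1 (-1.20), Pmvk (-1.11) and Tm7sf2 (-1.03) in front. Tsc1 loss alone gave this list a median of 0.22 and ethanol alone -0.43.

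Genes of triglyceride storage were divided, with 10 of 27 higher and 6 lower. The droplet coat protein Plin3 rose by 1.53 ± 0.14, the fatty acid transporter Cd36 from 25.7, 27.7, 24.9 and 31.9 CPM to 69.0, 190, 120 and 105 CPM (2.13 ± 0.24, adjusted p = 9.8e-06) and Mogat2, a monoacylglycerol acyltransferase, by 3.37 ± 0.46. The fat storage proteins Fitm1 (-2.73) and Fitm2 (-0.78) fell. Plin2, which coats the droplets of fatty liver, was at 374 to 599 CPM in wild-type control and 418 to 652 CPM in knockout ethanol (0.20 ± 0.24, adjusted p = 0.54), beside 920 CPM after ethanol alone. Of 21 apolipoproteins and assembly genes 5 fell and 1 rose, beside 18.6 and 20.6% of all genes tested. The member that rose was Apoa4 (2.50 ± 0.39, adjusted p = 0.00017), and Apoh (-0.57), Pltp (-1.34) and Apoa5 (-0.64) fell. Of 24 bile acid genes 7 fell and 3 rose: the basolateral exporter Abcc4 rose from at most 2.28 CPM to 24.0, 80.0, 10.0 and 42.7 CPM (4.56 ± 0.60, adjusted p = 6.1e-05), Slco1a4 rose by 1.78, and Slco1b2 fell by 1.21 on the log2 scale.

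Among lists of zonation, the pericentral genes that were called fell, and more periportal nitrogen genes rose than fell. Whole-liver counts do not show where in the liver a change lies. Of 20 pericentral genes 12 fell and none rose (median -0.91), among them Gulo, which makes vitamin C (-1.40 ± 0.16), the WNT target Lgr5 (-2.29 ± 0.41), Notum (-0.93) and Lect2 (-0.99), while Glul did not pass the test (-0.34 ± 0.29, adjusted p = 0.37). Of 22 urea cycle and periportal nitrogen genes 10 rose and 3 fell (median 0.46), beside medians of 0.85 after ethanol alone and 0.05 after Tsc1 loss alone. Argininosuccinate synthase (Ass1) went from 775, 552, 933 and 699 CPM to 1660, 1480, 2140 and 1810 CPM (1.26 ± 0.19, adjusted p = 0.00012), and Asl (1.06), Got1 (1.78) and Cps1 (0.78) rose. Of 34 genes of glycolysis, glycogen and gluconeogenesis 7 rose and 6 fell (5 and 3 without library 2). The 7 and 6 are shares near the 20.6 and 18.6% of all genes tested. Aldoa (0.69) and Tpi1 (0.54) rose, and Ldha (-1.47 ± 0.18) and Pgk1 (-0.74) fell. Of 25 genes of the methionine cycle and one-carbon metabolism 9 rose and 3 fell (6 and 2 without libraries 1 and 2), with Mat2a (1.01) and Mat1a (0.90) higher and methionine synthase (Mtr, -0.89) and Pemt (-0.58) lower.

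Of 31 abundant plasma proteins 9 fell and 2 rose, and their summed level was 127000 to 184000 CPM in knockout ethanol libraries, against 184000 CPM or more in wild-type control. Without knockout ethanol libraries 1 and 2, 7 fell and 4 rose, a share of falls near that of all genes tested, and the median moved from -0.21 to -0.05. Mug2 fell by 1.36 ± 0.17 and Serpina7, the thyroxine-binding globulin, by 2.74 ± 0.55, the latter to 2.59, 21.3, 8.61 and 5.86 CPM from 53.6 to 85.1 CPM. Of 39 complement and coagulation proteins 13 fell and 4 rose (11 and 2 without libraries 1 and 2), with factor XI (F11) at 136, 116, 113 and 103 CPM against 32.0, 17.2, 25.6 and 28.3 CPM (-2.18 ± 0.19, adjusted p = 5.9e-07), C8g at -1.29 and Mbl1 at -1.21. Of 21 hepatocyte transcription factors 6 fell and 1 rose, including the falls of Rxra (-0.48) and Cebpa (-0.64). Without libraries 1 and 2, 4 of the 21 fell and 2 rose, a share of falls near that of all genes tested. Of 31 acute-phase and IL-6 genes 9 rose and 2 fell: besides Orm3, the endotoxin binder Lbp rose by 1.45 ± 0.27, 6 rose and 1 fell without libraries 1 and 2, and their median was 0.25 (0.14 without library 1, 0.09 without library 2) beside 1.12 after ethanol alone. Of 25 metallothionein, iron and haem genes 9 rose and 2 fell, with ferritin heavy chain (Fth1) at 1350, 1100, 1320 and 1230 CPM against 3070, 3480, 3220 and 4350 CPM (1.49 ± 0.13, adjusted p = 6.5e-07), the zinc importer Slc39a4 at 1.57, hepcidin 2 (Hamp2) at 2.09 and Alas2 at -2.12.

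Among 25 markers of cholangiocytes and the ductular reaction 21 rose and 1 fell (median 1.78), and among 21 markers of fetal liver and liver tumours 17 rose and 1 fell (median 2.20). Tsc1 loss alone gave medians of 1.52 and 1.38, ethanol alone -0.23 and 0.17. The tight junction protein Cldn4 was read at 0.0614 to 0.223 CPM in wild-type control and at 3.01, 4.76, 1.37 and 0.873 CPM in knockout ethanol libraries (3.95 ± 0.55, adjusted p = 4.5e-05). The surface marker Cd24a rose from 2.15 to 4.95 CPM to 20.3, 52.1, 14.2 and 12.5 CPM (2.82 ± 0.44), and Krt23, a stress keratin, by 2.99 ± 0.54. Library 2 was the highest for Cldn4 and Cd24a, and no wild-type control library reached the knockout ethanol range of these 3. Without knockout ethanol libraries 1 and 2, 14 bile duct markers rose and none fell, with a median of 1.03, and 14 fetal markers rose and 1 fell, with a median of 1.15. Leaving out library 2 alone gave medians of 1.19 and 1.18. Among the fetal markers Bex1 (3.81 ± 0.55), Bex2 (4.39), Bex4 (2.97), the imprinted RNA Meg3 (4.29 ± 0.68) and Akr1b7 (3.63) rose. The summed level of the bile duct list was 2020 to 2330 CPM in wild-type control and 3490 to 6770 CPM after both insults. It was 2620 to 3250 CPM after Tsc1 loss alone. After ethanol alone it was 2170 to 5410 CPM although the list scores were -0.23 to -0.14, so the sum did not follow the scores in every group. No defining marker was at 0 in all libraries. The part of more duct cells in the summed level was not tested.

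Matrix and endothelial genes rose in smaller numbers. Of 44 stellate cell, myofibroblast and matrix genes 16 rose and 1 fell (median 0.60, and 0.14 without knockout ethanol library 2). Col5a2, a fibrillar collagen chain, was read at 2.50, 3.89, 2.40 and 2.21 CPM in wild-type control against 104, 164, 115 and 95.8 CPM in knockout ethanol (5.44 ± 0.28, adjusted p = 5.9e-09), beside 116 CPM after Tsc1 loss alone and 2.31 CPM after ethanol alone. The receptor Pdgfra (1.30), the basement membrane collagen Col4a2 (1.14) and the membrane protease Mmp14 (1.11) rose, and the list summed to 2980 to 3660 CPM in wild-type control and 2990 to 3890 CPM after both insults, ranges that overlapped. Of 24 sinusoidal endothelial markers 9 rose and none fell: Lyve1 stood at 2.38 to 7.34 CPM against 12, 39.8, 23.0 and 27.1 CPM (2.40 ± 0.36, adjusted p = 0.00014), and the scavenger receptor Stab2 (1.20 ± 0.18) and Gpr182 (0.89 ± 0.12) rose.

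Macrophage markers rose in number, with library 2 in front. Of 26 monocyte and macrophage markers 12 rose and none fell (median 1.00), and without knockout ethanol libraries 1 and 2, 7 rose and 1 fell. The median was 0.41 without library 2 and 0.13 without both. Their summed level was 197 to 308 CPM in wild-type control and 395 to 1420 CPM in knockout ethanol libraries, and the scores of knockout ethanol libraries 1 to 4 were 0.81, 1.84, 0.22 and 0.16. Cd68, a lysosomal glycoprotein of macrophages, was read at 16.3, 28.2, 16.3 and 26.2 CPM against 4.00 to 9 CPM (2.01 ± 0.31, adjusted p = 0.00014), and Gpnmb, which marks lipid-laden macrophages and is itself a lysosomal gene, at 1.08, 17.6, 3.68 and 2.68 CPM against at most 0.639 CPM (4.02 ± 0.81). Of 47 interferon-stimulated genes 10 rose, a share near the 20.6% of all genes tested, and none fell. The list score was 1.86 in knockout ethanol library 1 and -0.11 to -0.05 in the others. Without libraries 1 and 2, 5 rose and 6 fell. Ly6e was the clearest rise, at 491, 887, 464 and 386 CPM against 135 to 208 CPM (1.77 ± 0.23, adjusted p = 2.6e-05).

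Among 16 markers of Kupffer cells, 4 rose and 2 fell (2 and 4 without libraries 1 and 2), beside 20.6 and 18.6% of all genes tested. The scavenger receptor Marco was higher (1.96 ± 0.42) and the complement component C6 lower (-1.42 ± 0.25). Of 10 neutrophil and adhesion markers 3 rose and none fell (1 and none without library 2), Il1b among them (1.72 ± 0.39, adjusted p = 0.0026). Of 18 lymphocyte and MHC class II markers none rose and 3 fell, and without libraries 1 and 2, 7 fell; Cd4 went from 2.13 to 3.13 CPM to 0.227 to 0.772 CPM (-2.60 ± 0.39). Of 20 chemokines and cytokines 10 rose and 1 fell, with Ccl9 (1.41 ± 0.18), Ccl6 (1.54), Tgfb1 (1.17) and Mif (0.81) higher and Cxcl12 lower (-0.82 ± 0.14). Of 6 tested markers of fat, pancreas, muscle and red cells none rose and 2 fell, and the whole list summed to 92.4 to 246 CPM in wild-type control and 152 to 474 CPM in knockout ethanol libraries.

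Cell cycle genes were mixed. Of 42 tested 20 rose and 5 fell (median 0.61). Of the 42, 10 were higher than in both single-insult groups, beside 2.33% of all genes tested. Over all genes that count was 334 and ran from 157 to 397 when 1 library was left out. Without knockout ethanol libraries 1 and 2, 12 rose and 5 fell. Hmmr, a spindle protein, stood at 0.116 to 0.43 CPM against 1.5, 4.48, 1.72 and 1.12 CPM (3.07 ± 0.53), and Ccnd2 (1.33 ± 0.21) and E2f1 (1.12 ± 0.18) rose. Thymidine kinase (Tk1) and Cdk2 were exceptions, falling by 2.16 and 1.16 on the log2 scale.

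**Figure D4:**
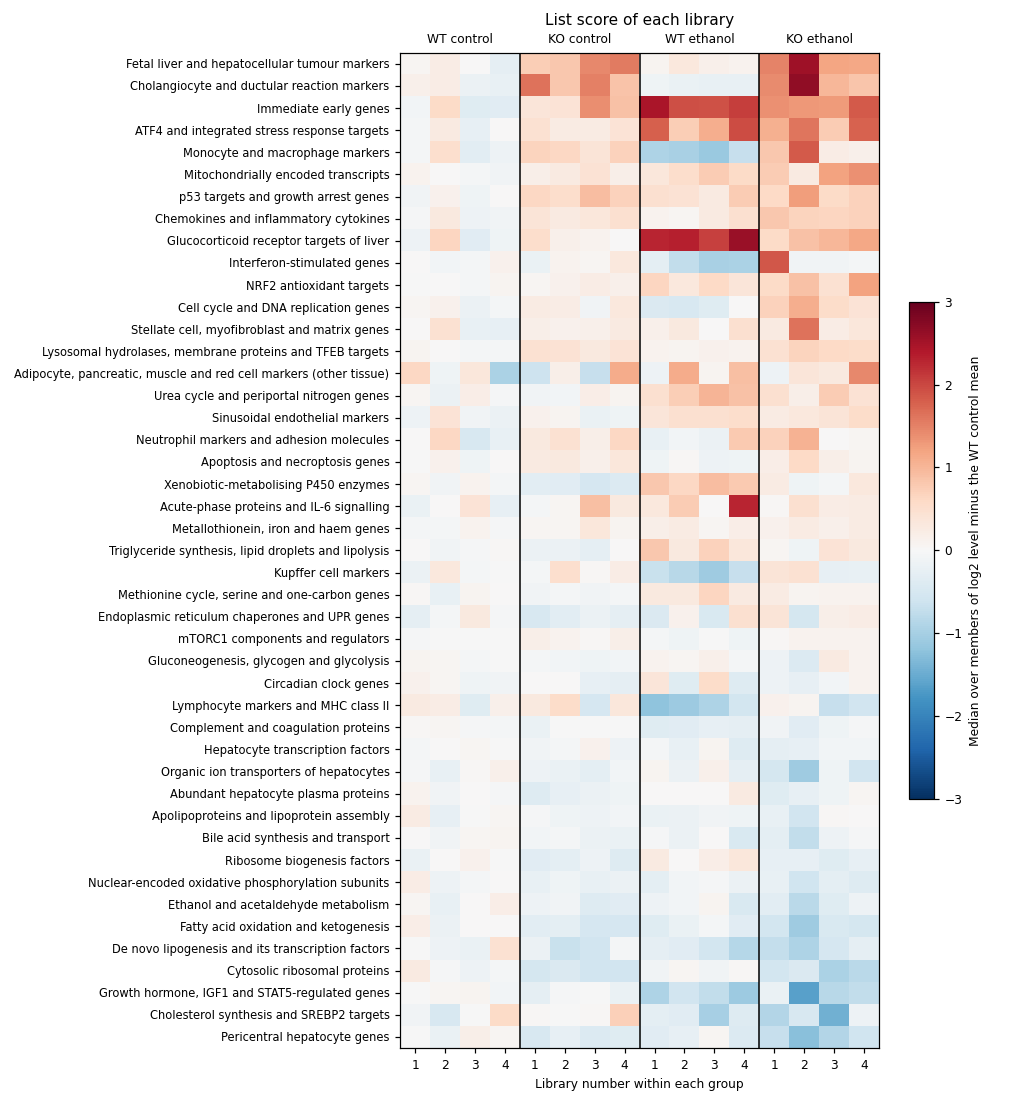
Score of each list (rows) in each of the 16 libraries (columns, by group), as the median over members of the log2 level minus its WT control mean, on a scale from -3 (blue) to 3 (red). KO ethanol library 2 is highest for bile duct, fetal, macrophage and matrix lists, and library 1 alone is high (1.86) for interferon-stimulated genes.

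To place the combined state beside each insult alone, genes were counted that in knockout ethanol livers differed from wild-type control, from knockout control and from wild-type ethanol in the same direction. There were 334 such genes higher (2.33% of those tested) and 321 lower (2.24%). These counts depend on single libraries: leaving out knockout control library 1, 2 or 4 gave 208, 157 and 200 higher genes. The lower genes numbered 167 and 201 when knockout control library 2 or 4 was dropped, and 201 and 150 when knockout ethanol library 3 or 4 was. Of the 2961 genes that rose in the combined comparison, 856 were also above knockout control, 1479 above wild-type ethanol and 960 above neither. Of the 2669 that fell, 822 were also below knockout control, 1196 below wild-type ethanol and 972 below neither. Besides H19, Lrtm2, Cyp2a4 and Cyp2b9, the genes furthest above both single insults included Chil1, a chitinase-like protein, at 2.11, 2.44, 4.04 and 3.99 CPM (5.33 ± 0.61, adjusted p = 8.6e-06) against means of 0.294 CPM after ethanol alone and 0.331 CPM after Tsc1 loss alone. The tubulin polymerisation protein Tppp3 was read at 0.842, 5.56, 4.21 and 1.81 CPM against 0.186 and 0.301 CPM, and the surface protein Ly6d at 14.3, 144, 16.6 and 20 CPM against 3.10 and 5.04 CPM. Slc7a11, the cystine transporter, met the same rule with library 2 far above the others (0.662, 41.6, 0.772 and 0.561 CPM), and was not called without it or by DESeq2.

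Below both single insults stood Hsd3b5, Slc22a28, Serpina12 and Slco1a1, the orexin receptor Hcrtr2 (at most 0.12 CPM against 0.317 and 0.350 CPM), the peroxidase Gpx6 and the transporter Abca14. At these levels Hcrtr2 had only a few counts per library, so its place is uncertain. The levels of Gpx6 and Abca14 are not printed here. Csad, which makes taurine from cysteine, was read at 283, 202, 329 and 517 CPM in wild-type control and at 56.1, 48.8, 50 and 123 CPM after both insults (-2.26 ± 0.38, adjusted p = 0.00036), while neither insult alone passed the test (220 CPM after ethanol, 431 CPM after Tsc1 loss). The annotated microRNA locus Mir6236 fell from 53.8 to 76.4 CPM to 30.5, 18.1, 11.3 and 9.67 CPM, and stood at 77.3 and 54.2 CPM in the single-insult groups. A polyA library does not measure mature microRNAs, so this is the signal of the locus only.

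In 422 genes both single insults were called in the same direction, and 413 of these were called in that direction after both. These comparisons share the wild-type control libraries, so part of this overlap can follow from the design. In 197 genes the single insults were called in opposite directions. Of these, 108 (0.753% of genes tested) did not pass the test after both, 73 with Tsc1 loss upward and 35 downward. The count was 56, 63 and 57 when wild-type control library 1, 3 or 4 was left out, 66 and 58 for knockout control library 1 or 4, and 175 without knockout ethanol libraries 1 and 2. Lrp2, the endocytic receptor megalin, was read at 22.7 CPM after Tsc1 loss alone, 0.398 CPM after ethanol alone, 2.17, 3.09, 1.90 and 3.31 CPM in wild-type control and 5.66, 1.47, 8.31 and 2.68 CPM after both (0.79 ± 0.44, adjusted p = 0.16; 1.08 and called without knockout ethanol library 2). Tmigd1 (0.48 ± 0.57) and Gpr12 (0.41 ± 0.45) had the same order of the single-insult groups. Sorcs2, a sorting receptor, had the reverse order, at 0.0696 CPM after Tsc1 loss alone, 3.38 CPM after ethanol alone and 0.119 to 0.312 CPM after both. Not passing the test does not show that the level equalled that of wild-type control.

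**Figure D5:**
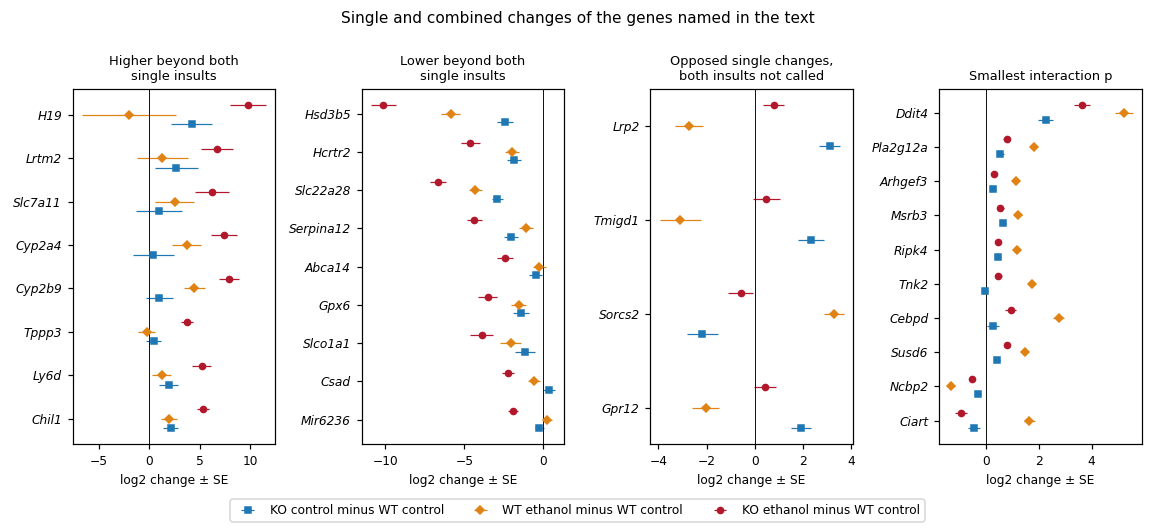
Fitted log2 change ± SE (horizontal axis) of genes named in the text after Tsc1 loss alone, ethanol alone and both, in 4 panels by pattern. In the left pair of panels the combined change lies beyond both single changes, in the third the single changes lie on opposite sides of 0, and in the last the combined change is smaller than ethanol alone or of the other sign.

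The interaction term, which asks whether the combined change departs from the sum of the single changes on the log2 scale, was called in 259 genes (1.81%), and 124 of these were also called in the combined comparison. Without 1 library it was called in 53 to 499 genes, lowest without wild-type control library 1 and highest without wild-type ethanol library 3, and DESeq2 called 761. In each of the 10 genes with the smallest interaction p among the 124, the combined mean lay closer to wild-type control than the mean after ethanol alone. Ddit4 was read at 3.67 to 5.05 CPM in wild-type control, 20.4 CPM after Tsc1 loss, 159 CPM after ethanol and 38.8, 62.3, 32.7 and 79.9 CPM after both (interaction -3.84, adjusted p = 0.00092). The phospholipase Pla2g12a (-1.57), the guanine exchange factor Arhgef3 (-1.10), the methionine sulfoxide reductase Msrb3 (-1.33) and the kinases Ripk4 (-1.16) and Tnk2 (-1.23) shared that order. Cebpd, an acute-phase transcription factor, was read at 36.7 CPM after ethanol alone and 8.22 to 12.8 CPM after both, against 3.32 to 8.25 CPM in wild-type control (interaction -2.08, adjusted p = 0.0044). Susd6 had the same order (-1.10). Ncbp2, a subunit of the cap-binding complex, had the opposite sign (interaction 1.08), at 9.49 CPM after ethanol alone and 15.2 to 17.8 CPM after both. Ciart, a clock repressor, stood at 44.0 CPM after ethanol alone and at 6.02 to 8.11 CPM after both, below the wild-type control mean (-0.93 ± 0.23).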

How the data were processed

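Counts of reads per gene in 16 mouse liver libraries were deposited by the authors as 1 table, not normalized. Per the labels' protocols, RNA came from snap-frozen liver and libraries were stranded, polyA-selected and read from 1 end. Per the submitters' processing notes, the tools were Trimmomatic 0.36, HISAT2 2.1.0 and HTSeq (version not given) with the GRCm38 build, and the strand setting of the counting is not given in the sources used here. Of 55487 rows, 7436 have no symbol (0.227 to 0.479% of counts) and were left out, and 88 repeat a symbol.

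edgeR 4.0.16 (R 4.3.3) was fitted to all 16 libraries with TMM scaling, filterByExpr and the quasi-likelihood test (12 residual degrees of freedom; common coefficient of variation 0.205), with Benjamini-Hochberg adjustment over 14346 genes at 0.05. DESeq2 1.42.0, limma 3.58.1 (voom), other scalings, no filter and left-out libraries were alternatives. Depth was 14.7 to 21.7 M counts per library; intervals and floors cover counting error only. On simulated counts for the combined comparison over 14346 genes, 55% of 100 genes changed by 1 and 91% of 100 changed by 2 on the log2 scale were recovered, with 4 false calls among 14146. The simulation changed a far smaller share of genes than the 39.2% called in the data. The adjusted threshold depends on that share, so these values do not give the sensitivity of the real comparison.

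Named genes were Tsc1, the 12 largest rises and falls, by log2 change, that were called in each fit leaving out 1 of the 8 libraries, with at least 2 CPM in the higher group and no overlap; the 8 largest rises and falls in CPM; up to 5 called, 2 uncalled and 2 opposing members per list; and 10 genes per pattern of the single insults. Not all of them are printed, and a few genes are not reported here. The members and lists were chosen with earlier results of these data known. Of 228 genes named with values, 12 overlap a gene on the same strand and 61 on the opposite strand. Values in families of near-identical genes (Mup, Cyp2b, Cyp2a, Cyp2c, Ugt2b, Ces3, Hsd3b, ribosomal proteins) are uncertain, since reads can be split between copies. Coordinates are from GENCODE M21 (GRCm38).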

Additional observations from a re-analysis of the deposited data

Results flagged for a closer look

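Among 546 groups of 4 libraries (the levels of the named genes and the list scores in wild-type control and knockout ethanol), 50 had 1 library far from the other 3, 28 of them in knockout ethanol and 22 in wild-type control. Chance gives about 1 in 20 such groups. Knockout ethanol library 2 was the distant one in 17 groups and library 1 in 6. In knockout ethanol library 1 the distant levels were those of Hsd3b5 (1.02 CPM), Cox7a2 (98.1 CPM) and Lbp (184 CPM). In knockout ethanol library 2 the distant levels were those of H19 (675 CPM), Lrtm2 (19 CPM), Cyp2a4 (160 CPM), Cyp2e1 (1430 CPM), Gla (15 CPM) and Cyp2c67 (14.9 CPM). The same library also stood apart in Cyp4a10 (373 CPM), Bex2 (7.37 CPM), Akr1b7 (7.2 CPM), Gpnmb (17.6 CPM), E2f1 (8.28 CPM) and Ly6d (144 CPM). The same library also stood apart in Slc7a11 (41.6 CPM) and Tnk2 (22.6 CPM). In knockout ethanol library 4 the distant levels were those of Slc17a8 (4.8 CPM), Col27a1 (10.1 CPM) and Csad (123 CPM). In wild-type control library 1 the distant levels were those of Gpx3 (12.8 CPM), Adh5 (512 CPM), Aldoa (112 CPM) and Pla2g12a (24.5 CPM). In wild-type control library 2 the distant levels were those of Lrtm2 (0 CPM), Serpina9 (7.03 CPM), mt-Nd5 (4400 CPM), Pzp (5640 CPM), Ldha (754 CPM) and Cd68 (9 CPM). The same library also stood apart in Ccl6 (10.4 CPM), Tgfb1 (7.29 CPM), Chil1 (0.106 CPM) and Slc7a11 (0.532 CPM). For Lrtm2 and Chil1 the wild-type control libraries hold 0 to 2 counts each, so the distance is 1 count and carries no information on the library. In wild-type control library 3 the distant levels were those of Cux2 (1.29 CPM), Hsd3b2 (45.4 CPM), Hp (4510 CPM), Fitm2 (93.9 CPM) and Mmp14 (37.3 CPM). In wild-type control library 4 the distant level was that of Arhgef3 (19.4 CPM). Distant list scores in knockout ethanol were 0.03 in library 1 for mTORC1 components and regulators, -0.36 in library 3 for ribosome biogenesis factors, 1.25 in library 2 for p53 targets and growth arrest genes and -1.07 in library 2 for fatty acid oxidation and ketogenesis. Further scores in the same group were 1.86 in library 1 for interferon-stimulated genes, 1.64 in library 2 for stellate cell, myofibroblast and matrix genes, 0.25 in library 1 for methionine cycle, serine and one-carbon genes and 1.85 in library 4 for immediate early genes. Distant list scores in wild-type control were 0.42 in library 2 for sinusoidal endothelial markers and 0.1 in library 3 for metallothionein, iron and haem genes. The interaction term, in log2 units, set the effect of ethanol in the knockout apart from that in the wild type for Ddit4 (-3.84), Pla2g12a (-1.57), Arhgef3 (-1.1), Msrb3 (-1.33), Ripk4 (-1.16), Tnk2 (-1.23), Cebpd (-2.08), Susd6 (-1.1) and Ciart (-2.14), which were negative, and for Ncbp2 (1.08), which was positive.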

How the results depend on the processing

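The counts of genes higher and lower in the combined comparison stayed within 1.5 times of 2961 and 2669 under every alternative run: other scalings, no filter, DESeq2, voom, the 2 groups alone and left-out libraries. They ran from 2558 to 3131 and from 2152 to 2675 when 1 of the 16 libraries was left out, and were 2618 and 2387 with the 2 groups alone. The Tsc1 log2 change ran from -0.96 to -0.82 without 1 library. Counts that place the combined state beside the single insults moved more. Without 1 library, genes higher beyond both single insults numbered 157 to 397 and lower 150 to 432, opposed genes 56 to 143, interaction genes 53 to 499, and those also called in the combined comparison 28 to 226. With no filter, 179 genes were lower beyond both and 70 were opposed. With voom, 266 genes were opposed, 545 had an interaction and 260 of these were called in the combined comparison. DESeq2 gave 761 and 331 for the last pair. Without knockout ethanol libraries 1 and 2, 175 genes were opposed, 115 had an interaction and 70 of these were also called. No named gene reversed, and 210 of the 217 called named genes kept their call under every alternative. The exceptions are given beside their values. The cause of these shifts was not tested. Libraries of the 2 groups with the same replicate number had correlations of deviations of 0.02, 0.21, 0.2 and 0.13. Libraries with unlike numbers were not compared, so these values cannot show whether replicate numbers pair the libraries. With the replicate block 2988 genes were higher, 2652 lower, 319 and 311 beyond both, 110 opposed, and 255 had an interaction, 133 of them called in the combined comparison.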
